A study of Mus musculus with 4 samples.

Results

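Gene expression in the liver of a microsomic male sample (MM) was set against that of a control male sample (CM), each hybridized to 1 array, and these are 2 of the 4 arrays of the series. The pair was chosen from the sample labels alone, which give the growth group and the sex, and no measured value entered the choice. The other 2 arrays hold the matching pair from females (MF and CF), and their difference is quoted only where it is named. Microsomia is a low birth weight, here one that arises without a genetic difference in an inbred colony. Per the study's methods, microsomic pups weighed less than the tenth percentile of their sex at birth, and controls were littermates whose weight lay within an SD of the colony mean. No drug, diet or transgene separated the groups. The labels give whole liver, strain C57BL/6J and embryonic day 20 for both samples, whereas the methods describe newborn C57BL/6 N mice, and the number of animals behind each RNA sample is not given in the sources used here. The methods speak of replicate experiments, but 1 array of each group was analysed here, so that no difference between MM and CM could be tested and no p-value is given.

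Around birth the mouse liver is both a metabolic gland and a blood-forming organ. Its hepatocytes make plasma proteins, bile acids, glucose and cholesterol and start to oxidize fatty acids, while red cell, granulocyte and B cell precursors are lodged between them. Cholesterol is built from acetyl-CoA through mevalonate, squalene and lanosterol. The transcription factor SREBP2 switches on the genes of this route when a cell is short of sterol, and its relative SREBP1 acts on fatty acid synthesis. The nuclear receptor PPAR alpha acts on fatty acid oxidation, and the receptors CAR and PXR act on genes that clear drugs and steroids.

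Levels are given as the log2 of the processed signal of a spot minus the 75th percentile of its array, so that a level of 0 is that percentile, and levels were compared only between arrays for the same probe. The brightest probe measured on both arrays stood for the gene. The words higher and lower are used of a gene on MM when it differed by more than 1.5-fold, which is 0.585 on the log2 scale. Probes of 60 bases printed at 10 spots showed the technical spread within an array pair: over 258 such probes the difference between MM and CM had a pooled SD of 0.401 from spot to spot. This spread leaves out any variation between animals, RNA preparations and hybridizations.

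The arrays matched their labels for sex and tissue. The Y-linked genes Ddx3y (2.61 on MM and 1.47 on CM) and Eif2s3y (2.97 and 2.53) were well above background, Uty was measured near the floor (-2.73 and -2.85), and Xist and Kdm5d were not well above background on either array. All 17 hepatocyte identity genes were measured, with a median level of 8.49, among them Alb (9.63 and 9.96) and Apoa1 (9.12 and 9.30). The share of spots well above background was 65.3% on MM and 56.1% on CM, and the 75th percentile of the signal was 925 and 628. All 4 arrays lay on the same slide, where the M and the C arrays took up separate columns, so position on the slide and growth group cannot be told apart. Since whole liver was used, fewer cells of a type and less RNA per cell cannot be told apart either.

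In total, 21611 genes were measured on both arrays, and their levels correlated at r = 0.964 across genes, which are not independent replicates. Of these genes 8446 (39.1%) differed by more than 1.5-fold, 3110 of them (14.4%) higher and 5336 (24.7%) lower on MM. The median difference of all genes was -0.08. This split moved with the scaling: 36.8% of the called genes were higher as scaled here, 57.8% after centring each array on its median, where the median difference was 0.15, and 79.5% with the deposited signal unscaled, where it was 0.48. It was 46.2% after normexp background correction with quantile normalization.

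Brightness and base composition moved with the direction. Among genes with a mean level of at least 0, 27.2% passed 1.5-fold, 14.8% higher and 12.3% lower. Among the 10900 dimmer genes 50.8% passed, 14.0% higher and 36.8% lower. The genes called higher had a median level of 0.08 and a median probe GC content of 40%, and those called lower had -2.11 and 45%. Probes rich in pyrimidine runs (4 or more stretches of 5 letters, all C or T and at least 3 of them C, counted with overlap) were 8.14% of the higher and 23.7% of the lower genes, against 12.9% of all. The lower share was also larger at low column numbers of the array (34.3% in the second sixth of its columns against 16.2% in the last). The part of these properties in the differences was not tested. Counts in the gene groups below are to be read against the 14.4% higher and 24.7% lower among all genes, and the median level is given beside the groups that the text dwells on.

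**Figure D1:**
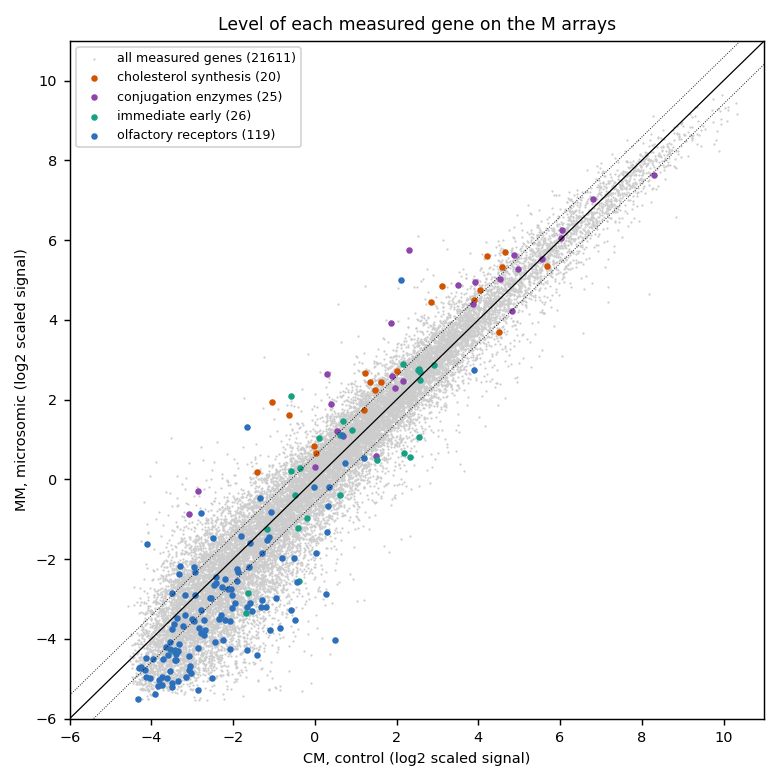
Level of each of the 21611 measured genes on CM (x axis) and MM (y axis), both in log2 scaled signal, with the line of equal level and dotted lines at 1.5-fold. Members of 4 gene lists are coloured: most cholesterol synthesis genes lie above the line at middle levels, and most of the measured olfactory receptors lie below it near the floor.

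**Figure D2:**
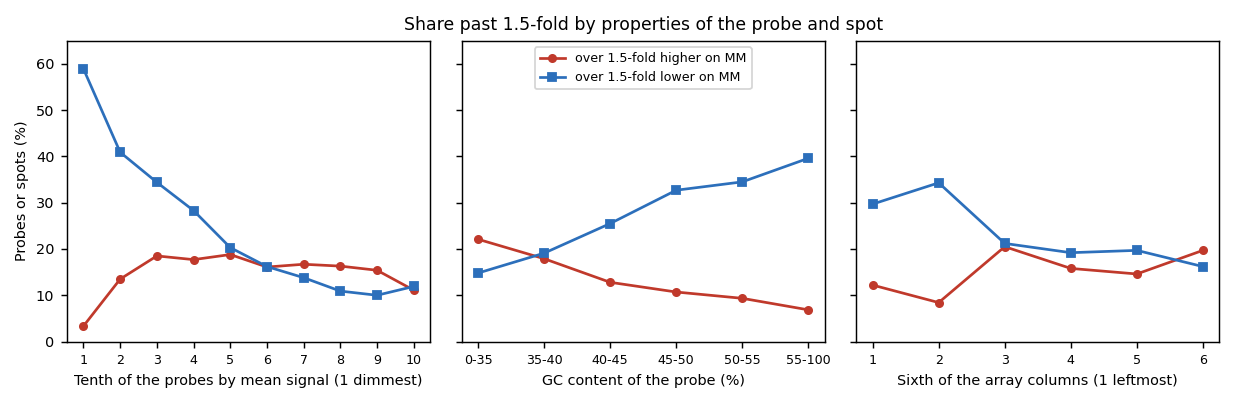
Share of probes (left and middle panel) or spots (right panel) more than 1.5-fold higher (circles) or lower (squares) on MM, in percent, by mean signal, GC content and column of the array. The lower share drops from 58.9% in the dimmest decile to 11.9% in the brightest and climbs from 14.8% to 39.6% with GC content.

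Genes with several probes gave a check that a single spot cannot. Of 5039 genes with at least 2 measured probes, 2861 (56.8%) had all probes on the same side of 0. All probes passed 1.5-fold in the same direction in 218 genes higher (4.33%) and 395 genes lower (7.84%) on MM. Where the brightest probe passed 1.5-fold, in 1790 genes, the other probes took its direction in 1173 (65.5%), and 274 genes had probes past 1.5-fold both ways. Probes that share sequence are not separate readings, and 34 of the 613 agreeing genes had probes with 20 or more bases in common.

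The 15 genes with the firmest agreement in each direction were ranked by their smallest probe difference. Among these 30, the mitochondrial carrier Slc25a25, which moves ATP-magnesium against phosphate, had the largest difference on the lower side. Its brighter probe read 0.21 on MM and 3.64 on CM, a 10.8-fold lower level, and its other probe read 0.23 and 3.45, a 9.3-fold lower level. The probes stand apart on the transcript and share at most 5 bases in a row. The sulfotransferase Sult2a6, of a family that conjugates steroids and bile acids, had the largest on the higher side. It read 6.01 on MM and 3.14 on CM with one probe and 5.17 and 1.80 with the other, 7.34-fold and 10.3-fold higher. These Sult2a6 probes overlap by 28 bases, printed in capitals, and the annotation assigns them to Sult2a1 as well, one of them also to Sult2a5, so the family member that was measured is uncertain. The 4 probes are shown because they carry the largest difference of these genes in each direction; on mm9 they lie at chr2:32270275-32270334 and chr2:32270490-32270549 (minus strand) for Slc25a25 and at chr7:14807923-14811254 (a span longer than the probe itself) and chr7:14811213-14811272 (minus strand) for Sult2a6.
Slc25a25, brighter probe: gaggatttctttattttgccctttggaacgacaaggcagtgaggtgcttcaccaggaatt
Slc25a25, other probe: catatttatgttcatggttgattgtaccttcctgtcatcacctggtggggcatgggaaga
Sult2a6, brighter probe: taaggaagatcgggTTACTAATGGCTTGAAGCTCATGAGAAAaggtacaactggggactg
Sult2a6, other probe: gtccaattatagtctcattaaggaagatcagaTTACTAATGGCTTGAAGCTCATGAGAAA

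Several of the other agreeing higher genes act in liver metabolism. Fads2, the delta-6 desaturase that opens the synthesis of long polyunsaturated fatty acids, read 3.97 on MM and 2.03 on CM (3.85-fold). Pgm3, an enzyme of the amino sugar pathway, read 3.60 and 1.07 (5.78-fold), its other probe 2.3-fold higher. Slc17a3, an organic anion transporter, read 1.53 and -1.0 (5.74-fold). Dbp, a clock-driven transcription factor of liver, read 2.13 and 0.00, and its probes differed by 2.13 and 1.21. The chaperone Hsph1 read 1.77 and 0.37, and Spred1, an inhibitor of Ras signalling, read 1.99 and 0.15. Fam46a differed by 2.27 and Pter by 1.54, while Homer2, Heatr5b, Fam84b, Mtm1, Xlr3b and Zfp143 differed by 1.26 to 1.62. Xlr3b belongs to a family of near-identical X-linked genes, whose probes may not tell its members apart.

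The agreeing lower genes were mostly dim. Of the 15, only Slc25a25, Cd4, Txnip, Hcn2 and Zfp956 had a level above 0 on MM. Txnip, a thioredoxin-binding protein whose transcript follows glucose supply, read 4.17 on MM and 5.60 on CM, and its probes differed by -1.43 and -1.70. Cd4, the T cell co-receptor that macrophages also carry, read 4.78 and 6.58, but its other probe lay near the floor, at -4.86 and -3.33. Hcn2, a pacemaker channel, read 2.42 and 4.43 with a probe of 81.7% GC, and Zfp956 read 0.21 and 2.22 with probes that share 51 bases. In females MF minus CF was 2.40 for Txnip, 1.31 for Cd4 and 3.43 for Hcn2, the opposite sign. Chic1 (-2.75), Cntn4 (-1.90), Myo18b (-1.81), Cryaa (-1.86) and Adam33 (-1.56) were lower as well, and Tmem87a, Prr15l, Dnm1 and Cabyr by -1.44 to -1.55. Dmkn, an epidermal protein, differed by -2.0, but its probes share 55 bases. Cryaa, Cntn4 and Cabyr lay near the lowest levels that could be measured on MM.

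**Figure D3:**
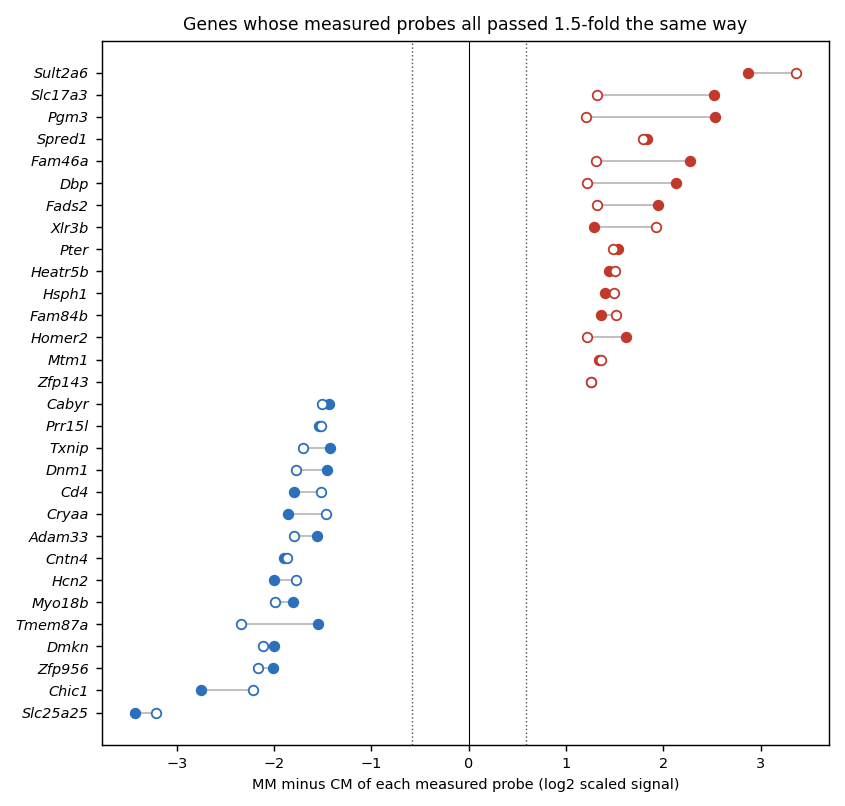
Difference between MM and CM (log2 scaled signal, x axis) of each measured probe of the 30 named genes whose probes all passed 1.5-fold in the same direction; filled circles are the brighter probe, open circles the other, and dotted lines mark 1.5-fold. Slc25a25 lies beyond -3 with both probes and Sult2a6 near 3.

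Probes at 10 spots gave a within-array error. The immediate early gene Fos read -2.55 ± 0.61 on MM and -0.40 ± 0.29 on CM (SD over 10 spots), and MM was below CM at each of them, a 4.45-fold lower level. Alpha-fetoprotein (Afp), the albumin of the fetal liver, read 8.62 ± 0.53 and 9.39 ± 0.22 and was 1.7-fold lower, again at each of its 10 spots. Edn1, the vasoconstrictor peptide endothelin, read -3.81 ± 0.30 and -2.29 ± 0.36. The spots share an RNA sample, so this error does not cover animals. On the higher side, the pattern receptor Tlr2 read 0.04 ± 0.11 and -1.19 ± 0.19 over 10 spots, and Alg14, an enzyme of protein glycosylation, read 2.42 ± 0.12 and 1.36 ± 0.26 over 9. The estrogen receptor Esr1 was 2.86-fold higher, the phospholipid enzyme Ept1 2.31-fold and Zfp84 3.06-fold, each at all of its measured spots, but a second probe of Zfp84 differed by 0.05 alone. Sox9, a bile duct regulator, was 2.2-fold higher at 9 of 10 spots. Gcg, Fgf12, Olfr381 and Il10 were also lower, but no more than 5 of their 10 spots were measured.

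Genes of cholesterol synthesis were higher on MM along most of the route. Of 21 enzymes 20 were measured, 17 of them (85%, against 14.4% of all genes) were higher and 1 was lower, and the median difference was 0.85 against -0.08 for all genes. Idi1 was left out because of an outlier flag on its spot. The list had a median level of 2.19, and 16.3% of all probes of like brightness were higher. Relative to all genes its median stayed between 0.78 and 1.11 under the 13 alternatives tried. Such a relative value cannot change with median centring or the unscaled signal, which are among the 13. In females 15 of 19 members were higher and none lower on MF than on CF, with a median of 1.67.

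From the first steps onward, Hmgcs1, the synthase that makes HMG-CoA, read 5.61 on MM and 4.21 on CM (2.64-fold). Mvk and Pmvk, the kinases of mevalonate, were 2.14-fold and 1.77-fold higher, with both probes of each gene in the same direction. Mvd, the decarboxylase that follows them, read 0.19 and -1.41 (3.03-fold). The prenyl synthases Fdps (1.64-fold) and Ggps1 (1.82-fold, 2 of 3 probes in that direction) and squalene synthase Fdft1 (1.52-fold) differed less, near the threshold for the last. The largest differences fell at the squalene and lanosterol steps. Sqle, the epoxidase that commits squalene, read 4.86 and 3.12 (3.33-fold), and Lss, the cyclase that makes lanosterol, read 1.61 and -0.64 (4.78-fold). Cyp51, the demethylase of lanosterol, read 1.94 and -1.06 (8.0-fold), the largest difference of the route. Sc4mol read 4.45 and 2.85 (3.04-fold), while the late enzymes Sc5d (2.05-fold) and Dhcr7 (1.54-fold) differed less. Tm7sf2, a sterol reductase, was the exception, at 3.68 on MM and 4.51 on CM (1.78-fold lower, both probes past 1.5-fold), and Ebp differed by -0.31. Nsdhl differed by 0.52 with its brighter probe and so missed the threshold, whereas its other probe differed by 0.82.

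Only 6 of these enzymes had several measured probes, and 4 of them agreed in direction. For Mvk the probes differed by 1.10 and 1.52, whereas for Hsd17b7, a reductase of the late steps, one probe read 2.73 and 2.0 and the other 1.37 and 1.79, a difference of -0.42. Their sequences are given because the first pair agreed and the second did not. On mm9 the Mvk probes lie at chr5:114910540-114910599 and chr5:114910299-114910358 (plus strand) and those of Hsd17b7 at chr1:171880203-171880262 and chr1:171883182-171883241 (minus strand).
Mvk, brighter probe: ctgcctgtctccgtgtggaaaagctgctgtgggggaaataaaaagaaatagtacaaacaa
Mvk, other probe: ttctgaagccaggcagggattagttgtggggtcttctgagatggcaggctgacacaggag
Hsd17b7, brighter probe: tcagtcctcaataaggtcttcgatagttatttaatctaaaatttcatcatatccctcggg
Hsd17b7, other probe: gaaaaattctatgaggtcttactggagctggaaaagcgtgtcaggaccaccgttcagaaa

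Because these enzymes are known as SREBP targets, the promoter windows of RefSeq (GRCm38.p6, 300 bases around the start of each gene) were searched for the sterol regulatory element TCACCCCAC on both strands. It was found in 1 of 16 members with a promoter sequence, Hmgcs1, in 0 of 12 of the uptake genes, and in 181 of 32851 promoters (0.551%). Only this exact sequence was searched for, so variants of it and elements outside the windows were missed. A promoter without a match cannot be said to lack the element. The Hmgcs1 window at chr13:119690101-119690400 (plus strand) is shown with the element in capitals; a match of letters is a description and not a site of binding.
Hmgcs1 promoter: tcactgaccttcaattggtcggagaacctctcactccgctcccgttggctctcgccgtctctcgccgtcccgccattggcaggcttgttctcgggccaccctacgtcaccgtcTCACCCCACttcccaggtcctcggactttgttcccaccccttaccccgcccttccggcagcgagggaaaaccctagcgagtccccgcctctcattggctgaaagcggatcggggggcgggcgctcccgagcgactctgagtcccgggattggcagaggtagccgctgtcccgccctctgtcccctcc

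Of the genes for cholesterol uptake and its control, 6 of 17 were higher and 2 lower, with a median of 0.12. Stard4, a carrier of cholesterol between membranes, read 4.0 on MM and 2.51 on CM (2.8-fold, and 1.7-fold with its other probe) and is a known SREBP2 target. Insig1, the sterol-regulated brake on SREBP, was 1.86-fold higher as well. Of the factors themselves, Srebf2 was 1.56-fold higher with its brighter probe but its other probe had the opposite sign, and Srebf1 differed by 0.50. The HDL receptor Scarb1 was 1.95-fold lower with its brighter probe, but its other probe was 1.78-fold higher. Lrp1 was 1.5-fold lower, just past the threshold. The sterol exporters Abcg5 and Abcg8 differed by 0.03 and 0.08.

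**Figure D4:**
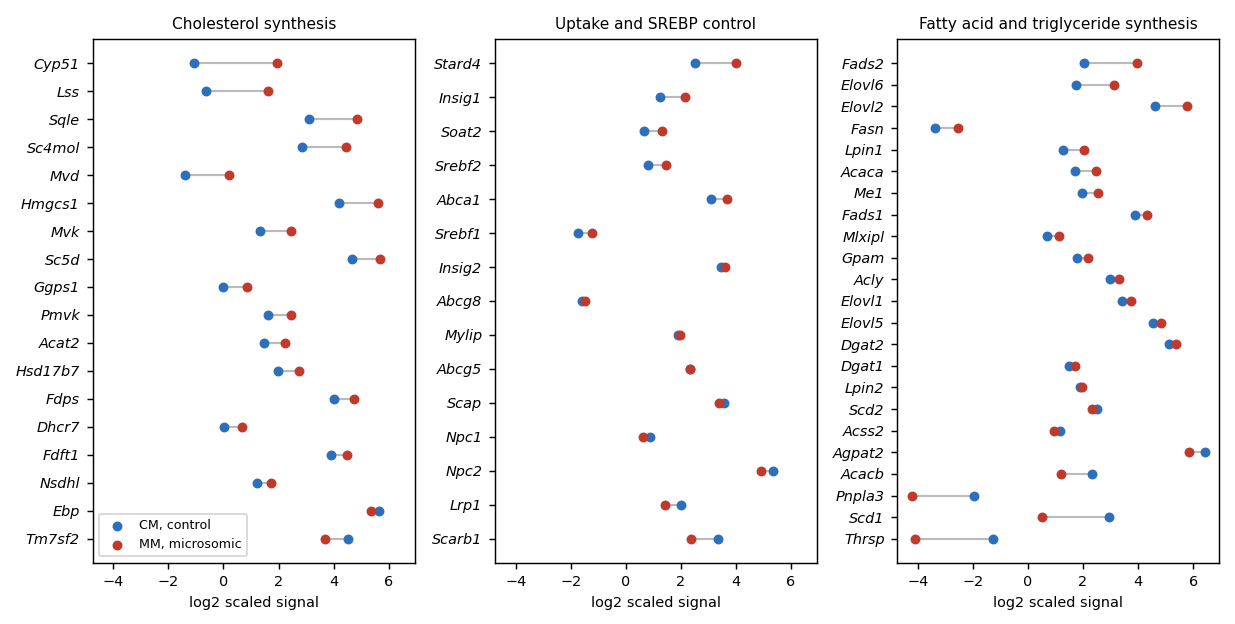
Level on MM (red) and CM (blue), in log2 scaled signal, of the genes reported here from cholesterol synthesis, cholesterol uptake and SREBP control, and fatty acid and triglyceride synthesis, ordered by difference. In the first panel the red point lies to the right in all but Ebp and Tm7sf2, and in the third the lowest places are held by Thrsp, Scd1 and Pnpla3.

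Fatty acid and triglyceride synthesis was divided. Of 23 members 6 were higher and 4 lower, with a median of 0.30. The elongases Elovl6 (3.14 on MM and 1.74 on CM, 2.63-fold) and Elovl2 (5.76 and 4.61, 2.23-fold) were higher along with Fads2. The carboxylase Acaca was 1.7-fold higher with its brightest probe. Its other probes differed by -0.03 and, near the floor, by 0.26. Fasn, fatty acid synthase, was 1.8-fold higher, but at a low level (-2.53 on MM and -3.38 on CM). Against these, Scd1, the desaturase that makes oleate, read 0.52 and 2.94 (5.38-fold lower). Thrsp, a nuclear protein that follows carbohydrate feeding, read -4.11 and -1.27 (7.17-fold lower), and Pnpla3, a lipase that SREBP1 and carbohydrate also induce, read -4.23 and -1.96 (4.82-fold lower), but its other probe differed by -0.22 alone. Acacb, the carboxylase that restrains oxidation, read 1.19 and 2.32 (2.19-fold lower, both probes past 1.5-fold). Thrsp and Pnpla3 lay near the floor on MM. In females Scd1, Thrsp and Pnpla3 were higher on MF than on CF, by 0.89, 1.36 and 0.84.

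More genes of fatty acid oxidation and ketone synthesis were higher than lower, 11 against 3 of 28, and the median was 0.39. The list was bright, at a median of 5.2, and of the probes in the brightest decile 11.1% were higher and 11.9% lower. Hadhb, of the trifunctional protein of the inner membrane, read 7.23 on MM and 5.80 on CM (2.7-fold), whereas its partner Hadha differed by 0.27. Hadh, the short-chain dehydrogenase, read 6.26 and 4.74 (2.87-fold), and the acyl-CoA dehydrogenases Acads (2.15-fold) and Acadvl (1.85-fold) were higher too. Bdh1, which interconverts the ketone bodies, was 2.62-fold higher. Genes known to follow PPAR alpha did not take a common direction. Cyp4a14 (7.76 and 6.65), Cyp4a10, Acot1, Vnn1 and Acaa1b were 1.65 to 2.36-fold higher, and Cpt1a, which admits fatty acids to the mitochondrion, differed by 0.39. Pdk4, the kinase that spares glucose in fasting, read 0.97 and 2.69 (3.28-fold lower), Angptl4, an inhibitor of lipoprotein lipase, 3.91 and 5.01 (2.14-fold lower), and the fasting hormone Fgf21 -1.22 and -0.24 (1.97-fold lower). In females the median was -0.13, and the Cyp4a genes were lower, by -1.39 for Cyp4a14 and -1.63 for Cyp4a10.

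Of the genes of bile acid synthesis and transport 4 of 17 were higher and none lower. Akr1d1, the reductase of the steroid ring, read 4.47 on MM and 3.29 on CM (2.26-fold), and Abcb11, the bile salt export pump, read 5.26 and 4.54 (1.65-fold). Baat, which joins bile acids to taurine, and Slco1b2, an uptake transporter, were 1.64-fold and 1.58-fold higher. Cyp7a1, the rate-limiting enzyme of the route, differed by -0.37 and Cyp8b1 by 0.15. Among 16 genes for lipoproteins, Apoa4 stood out at 6.10 and 2.52 (12-fold higher). Apob, the backbone of VLDL, was 1.96-fold higher, with a difference of 0.22 for its other probe, and Apoc4 and Apoc2 were 1.7-fold and 1.64-fold higher. Pltp and Apoa5 were 1.82-fold and 1.53-fold lower, and the abundant Apoa1 and Apoa2 differed by -0.18 and -0.01.

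Glucose metabolism showed single large differences and no common shift. Of 17 genes of gluconeogenesis and glycogen 2 were higher and 3 lower, and the median was 0.05. G6pc, the catalytic subunit of glucose-6-phosphatase that releases glucose into blood, read 4.66 on MM and 8.18 on CM (11.5-fold lower). Its difference ran from -3.57 to -2.69 under the alternatives, and it rests on 1 probe. Slc37a4, the transporter that brings it its substrate, differed by -0.29, and Fbp1, another enzyme of the same route, by -0.18. Pck1 was left out because of an outlier flag. Ppp1r3c, which ties a phosphatase to glycogen, read 0.81 and -1.77 (5.95-fold higher), and Ppargc1a, a coactivator of gluconeogenic genes, was 1.74-fold lower with its brighter probe and had the opposite sign with the other. In females both G6pc (1.37) and Ppp1r3c (2.25) were higher on MF than on CF. Of 19 glycolytic genes 3 were higher, led by Hk2 (2.11-fold) and Aldoc (1.82-fold), and 3 lower, Pfkl (1.95-fold), Pklr (1.65-fold) and the transporter Slc2a1 (1.63-fold). Gapdh read 8.84 and 8.79 with the brightest of its 8 probes, the others lying between -1.01 and 0 in difference.

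In nitrogen metabolism Ass1, the argininosuccinate synthase of the urea cycle, read 5.85 on MM and 7.32 on CM (2.76-fold lower, and 1.77-fold with its other probe). The other 8 measured members of the cycle stayed within 1.5-fold, Cps1 (-0.57) and Arg1 (-0.54) at the lower end and Otc (0.19) and Glud1 (0.45) at the upper. The list median was -0.20, and relative to all genes it was -0.12, 0.03 without the filter on dim probes and -0.84 after normexp and quantile normalization. Enzymes that break down amino acids were higher in 6 and lower in 6 of 28, with a median of 0.05. Sds, the serine dehydratase, read 0.89 and 3.24 (5.1-fold lower), and its relative Sdsl read 1.0 and 2.50 (2.81-fold lower). Got1, the aspartate aminotransferase, was 2.9-fold lower, Aass, of lysine breakdown, 2.72-fold, the glutaminase Gls2 2.3-fold and Mat1a, which makes S-adenosylmethionine, 2.04-fold. All 6 of these were also lower on MF than on CF, by -1.24 to -3.50. Hal, the histidine ammonia-lyase, read 2.75 and 1.06 (3.24-fold higher, 0.51 on the log2 scale with the other probe), Aldh4a1 of proline breakdown was 2.48-fold higher, and Agxt 1.77-fold. Tat, the tyrosine aminotransferase that appears in liver around birth, differed by -0.14.

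Of 22 secreted plasma proteins 13 were below CM and 9 above it as scaled here, with a median of -0.24. Past 1.5-fold, 5 were lower and 2 higher. Their median level was 8.46, and of all probes in the brightest decile 11.9% were lower and 11.1% higher. Trf, which carries iron, read 8.98 on MM and 10.09 on CM (2.17-fold lower), but the sign turned after normexp and quantile normalization, where it differed by 0.45. The same setting turned Ttr to 0.39, Ahsg to 0.10 and Serpina1a to 0.05, which had differed by -0.61, -0.77 and -0.68. The whole list then lay 0.34 above the median of all genes instead of 0.16 below it, so the direction of this list depends on the normalization. The same is true of the hepatocyte identity list, of which 2 of 17 were higher (Hnf4a, 2.01-fold, and Apob) and 7 lower and whose median relative to all genes was -0.25 and turned to 0.15. Serpina7, which carries thyroid hormone, read 3.92 and 2.64 (2.43-fold higher). Of 18 coagulation factors Serpind1 (2.38-fold) and Klkb1 (1.64-fold) were higher, while Fgb was 2.06-fold lower and Fga 1.59-fold lower, the latter with a turn to 0.20 after normexp and quantile normalization.

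Acute phase proteins and complement were higher in 5 and lower in 5 of 26. The lectins Mbl1 (2.66 on MM and 1.27 on CM, 2.62-fold) and Mbl2 (6.76 and 5.47, 2.44-fold), their protease Masp1 (2.62-fold, but -0.13 with its other probe) and the complement subunit C8a (2.7-fold, with 0.82 on the log2 scale for its other probe) were higher. Of the members lower on MM, Saa3 read 0.11 and 1.91 (3.5-fold lower), Saa1 -0.58 and 0.54 (2.17-fold), Orm1 -2.40 and -1.31 (2.12-fold), and Serpina3n 4.44 and 5.55 (2.16-fold). Saa4, the constitutive member of its family, was 2.9-fold higher. Interferon-response genes gave 3 higher and 4 lower of 25, with Irf1 2.63-fold and Stat2 2.48-fold higher and Isg15, a ubiquitin-like effector, at 3.48 and 4.99, 2.86-fold lower, both probes past 1.5-fold.

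Of 22 cytochrome P450 genes, which clear steroids and foreign compounds, 10 were higher (45.5%, against 14.4% of all genes) and 1 lower (4.55%, against 24.7%). At their median level of 4.68, 11.1% of probes were higher and 11.9% lower. The median difference was 0.47, and relative to all genes it lay between 0.51 and 0.71 under the alternatives. Cyp2b10, the gene best known as a target of CAR, read 3.43 on MM and 0.64 on CM (6.92-fold). Cyp2c37, of a family with near-identical members, read 5.28 and 2.74 (5.83-fold, with 1.13 on the log2 scale for its other probe), and Cyp3a16, a fetal form, 5.97 and 4.48 (2.82-fold). Cyp39a1, which acts on an oxysterol, and Cyp2a12 were each 3.15-fold higher, whereas Cyp2e1 differed by 0.02 and Cyp3a11 by 0.44. Cyp1a1, which answers the aryl hydrocarbon receptor, was the exception, at -3.83 and -0.53 (9.91-fold lower), although Cyp1a2, which answers the same receptor, was 1.87-fold higher. The Cyp1a1 difference rests on 1 probe, at a low level on MM, and was -1.60 after normexp and quantile normalization. The receptors CAR (Nr1i3) and PXR (Nr1i2) differed by 0.45 and 0.05.

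Of 25 conjugating enzymes 11 were higher (44%, against 14.4% of all genes) and 3 lower (12%), with a median difference of 0.49 at a median level of 4.02. Sult2a1, of the steroid sulfotransferases, read 5.74 on MM and 2.29 on CM (10.9-fold), and Sult1c2 -0.29 and -2.85 (5.88-fold). The glucuronosyltransferases Ugt2b1 (2.65 and 0.29, 5.12-fold), Ugt2b36 (4.19-fold), Ugt2b5 (2.06-fold) and Ugt2b34 (1.68-fold) were higher as well. Gsta2, a glutathione transferase, read -0.86 and -3.09 (4.69-fold), and Gsta1 was well above background on MM alone, at least 3.97-fold higher. Tpmt, which methylates thiopurines, was 2.86-fold higher, both probes past 1.5-fold. Members of the Sult2a, Ugt2b and Gsta families are much alike, so a probe may read more than its own gene. Gstm2, on the lower side, was 1.86-fold lower, all 3 probes past 1.5-fold. In females Cyp2b10, Sult2a1 and Ugt2b1 were lower on MF than on CF, by -0.92, -1.59 and -1.05, and the medians were -0.22 for the P450 genes and 0.34 for the conjugating enzymes.

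Antioxidant genes were higher in 8 (40%, against 14.4% of all genes) and lower in 3 (15%) of 20, with a median difference of 0.41 at a median level of 5.46. Metallothioneins Mt1 (9.11 on MM and 8.26 on CM, 1.8-fold) and Mt2 (1.57-fold), the glutathione-making subunits Gclc (1.55-fold) and Gclm (1.59-fold), Prdx1 (1.62-fold, both probes past 1.5-fold) and the regulator Nfe2l2 (1.57-fold) were higher. The quinone reductase Nqo1 went the other way, at -0.70, although it differed by 0.39 after normexp and quantile normalization. Hmox1, which degrades heme, was 1.63-fold lower, with -0.35 for the other probe, and Prdx2, which red cells carry in bulk, 1.63-fold lower. The unfolded protein response had 4 higher (20%) and 1 lower of 20 and a median difference of 0.48 at a median level of 3.61, with 15 members inside the threshold. Herpud1, which removes misfolded proteins, read 6.06 and 4.88 (2.26-fold), Dnajc3 was 1.73-fold and the regulator Xbp1 1.51-fold higher, and Hyou1 was well above background on MM alone, at least 2.9-fold higher. Hspa5, the chief chaperone of the endoplasmic reticulum, read 6.27 on both arrays. Relative to all genes the unfolded protein list stayed at 0.44 to 0.74 and the antioxidant list at 0.33 to 0.60 under the alternatives.

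In the growth hormone and IGF axis 4 of 26 genes were higher and 3 lower. Stat5b, the transducer of growth hormone signals, read 4.0 on MM and 2.60 on CM (2.63-fold), but its other probe differed by 0.01. Socs2, a target and inhibitor of the same signal, read 3.88 and 2.67 (2.32-fold, all 3 probes past 1.5-fold). Igfbp2, the main IGF carrier of fetal liver, was 1.83-fold higher, with 0.58 for the other probe, and Igfbp7 5.9-fold higher. Igf1 itself differed by 0.52 with 3 of 5 probes in that direction, and the receptor Ghr by 0.14 with its brighter and 1.51 with its other probe. Igf2, the fetal growth factor, read 5.28 and 6.11 (1.77-fold lower), and Igfbp3 0.26 and 1.48 (2.32-fold lower). Igf2 is imprinted, and among 23 imprinted genes 7 were lower and 3 higher. Meg3, a noncoding RNA of the Dlk1 locus, read -0.64 and 0.94 (2.99-fold lower, its 3 probes between -1.85 and -0.80), whereas Mirg from the same locus was 1.6-fold higher, with 0.06 for its other probe, and Dlk1 differed by -0.45. Peg3 was 2.4-fold lower, both probes past 1.5-fold, the growth inhibitors Cdkn1c and Phlda2 1.61-fold and 1.55-fold lower, and H19 read 9.17 on both arrays. In females Igf2, Cdkn1c and Phlda2 were higher on MF than on CF, by 1.89, 1.95 and 3.11.

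Among 24 liver transcription factors 5 were higher and 2 lower. Hnf4a read 6.81 on MM and 5.80 on CM, and the pioneer factors Foxa1, Foxa2 (both probes past 1.5-fold) and Foxa3 were 1.74, 1.91 and 1.8-fold higher. Esrra, a regulator of mitochondrial genes, was 2.26-fold lower and Prox1 1.91-fold lower. Retinoid genes were higher in 4 and lower in 2 of 24. Rbp2, a retinol carrier best known from intestine, read -1.50 and 2.11 (12.1-fold lower), and Rdh5 was 1.79-fold and Dhrs4 1.96-fold higher. The retinoic acid receptors Rara, Rarb and Rarg differed by -0.22, 0.20 and 0.11 with their brightest probes, a second Rara probe by 1.18, and Crabp2 by 0.53.

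Of 17 clock genes measured, 5 were higher and 5 lower. Arntl (1.68-fold) and Clock (1.73-fold), the positive arm, were higher, and Per1 (1.85-fold) and Nr1d1 (-1.75 on MM and -0.07 on CM, 3.19-fold), of the negative arms, were lower. Dbp, which the positive arm drives, was higher together with Nr1d2 (1.58-fold), a close relative of Nr1d1. The hour at which each liver was taken is not given in the sources used here.

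Immediate early genes, which cells switch on within minutes of a stimulus, were higher in 6 and lower in 11 of 26, where 39.1% of all genes passed in either direction. Their median level was 0.8 and their median difference -0.07. Fos was joined on the lower side by Fosb (2.33-fold), Jun (2.02-fold), Dusp1 (0.65 on MM and 2.18 on CM, 2.89-fold), Zfp36 (3.17-fold) and the growth arrest genes Gadd45b (0.55 and 2.32, 3.4-fold) and Gadd45g (2.77-fold). Egr1 went the other way, at 2.08 and -0.58 (6.33-fold higher), with Ier3 (1.9-fold), Klf4 (1.73-fold), Klf2 (1.68-fold) and Btg2 (1.64-fold). Each of these genes rests on 1 probe. In females 16 of 25 members were higher and 3 lower, with Fosb at 3.50 and Dusp1 at 0.56. The amino acid stress list gave 4 and 4 of 22, with Trib3 2.17-fold and Atf5 (7.93 and 6.99) 1.92-fold higher and Ddit4 2.4-fold and Asns 1.55-fold lower. Atf4, the regulator of that response, differed by 0.09. Of 17 hypoxia genes, Egln3 (2.49-fold, both probes past 1.5-fold) and Pfkfb3 (2.34-fold) were higher and P4ha2, Adm and Slc2a1 lower, while Vegfa differed by -0.51.

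Of 38 red cell genes measured, 8 were lower (21.1%, against 24.7% of all genes) and 4 higher (10.5%, against 14.4%), so neither share exceeded that of all genes. Their median level was 4.04, and of probes of like brightness 10% were lower and 15.4% higher. The median difference was -0.27. Relative to all genes it was -0.19 and kept its sign under all 13 alternatives, although median centring and the unscaled signal could not change it. Slc4a1, the anion exchanger of the red cell membrane, read 5.52 on MM and 7.17 on CM (3.12-fold lower), and the adult globins Hbb-b1 (9.44 and 10.30, 1.82-fold) and Hbb-b2 (8.51 and 9.82, 2.49-fold) were lower too, although globin probes may read each other. The master regulators Gata1 (-0.11), Klf1 (0.20) and Tal1 (0.15) stayed within the threshold, as did Alas2 (-0.24). The summed linear signal of the list was 2740 on MM and 4380 on CM. Of 18 iron genes 6 were lower, among them Trf and the ferritins Fth1 (1.59-fold) and Ftl1 (1.52-fold), and 4 higher, among them Id1 (2.45-fold) and Smad7 (2.19-fold), which answer BMP signals, and the hormone Hamp (5.74 and 5.12, 1.53-fold).

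Other blood lineages differed by single genes. Prg2, the major basic protein of eosinophils, read 1.79 on MM and -1.27 on CM (8.36-fold higher), and Epx, the eosinophil peroxidase, was well above background on MM alone and at least 2.48-fold higher. The granulocyte list as a whole had 3 higher and 3 lower of 22, with Mpo at 5.07 and 5.02. Of 16 B cell precursor genes, at a median level of 0.41, 3 were lower and 6 higher (37.5%): the recombinases Rag1 (0.17 and -1.41, 2.97-fold) and Rag2 (2.59-fold), the nucleotide adder Dntt (-1.37 and -3.24, 3.65-fold), Il7r (2.55-fold), Ms4a1 (2.79-fold) and Vpreb3. The surrogate light chain genes Igll1 (0.59 and 2.38, 3.46-fold) and Vpreb1 (1.97-fold) were lower, and Ebf1 differed by -0.07. Of 23 macrophage genes 2 were higher (8.7%, against 14.4% of all genes) and 5 lower (21.7%, against 24.7%), so neither share exceeded that of all genes. The median difference was -0.048. The higher genes were Vsig4 (2.62-fold) and Clec4f (1.55-fold), which mark Kupffer cells. Cd14 (2.01-fold), C1qa and C1qb were among the lower genes, while Csf1r differed by 0.09. Endothelial genes were within 1.5-fold in 21 of 24, and their summed signal was 95.1 on both arrays.

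Matrix and stellate cell genes were lower in 9 (28.1%, against 24.7% of all genes) and higher in 2 of 32, with a median difference of -0.34. At their median level of 1.06, 13.8% of probes were lower and 16.7% higher. The fibrillar collagens Col1a1 (4.40 on MM and 5.07 on CM, 1.59-fold), Col1a2 (1.52-fold) and Col3a1 (1.68-fold) were lower, and Tagln, a smooth muscle protein, read 0.53 and 1.85 (2.5-fold lower). Vim and Dcn differed by 0.07 and -0.12. In dividing cells, 30 of 36 DNA replication genes were within 1.5-fold, and of 39 mitosis genes 8 were lower, among them Top2a (1.72-fold) and Cenpe (1.7-fold), and 4 higher, among them Aurkb (2.5-fold), from a low level. The median was 0.09 for replication and -0.11 for mitosis.

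Of 87 oxidative phosphorylation genes 14 were higher (16.1%, against 14.4% of all genes) and 10 lower (11.5%). At their median level of 5.44, 11.1% of probes were higher and 11.9% lower. Ndufa4l2, which hypoxia induces, was the lowest (-0.65 and 1.85, 5.68-fold lower). Of 35 proteasome subunits 7 were higher (20%) and none lower, led by Psmd1 and Psmd13 (2.07-fold and 2.02-fold). Of 79 cytoplasmic ribosomal proteins 10 were lower (12.7%) and 1 higher, with a median of -0.14, although relative to all genes the list stood at 0.10 after normexp and quantile normalization. Of 110 Golgi and vesicle coat genes 22 were higher, among them Tmed9 (2.58-fold, both probes past 1.5-fold), and 9 lower. The zinc finger genes named Zfp, many of which silence retroelements, were higher in 71 (23.6%) and lower in 40 (13.3%) of 301. Among all genes these shares were 14.4% and 24.7%. At the list's median level of -0.78, 18.8% of probes were higher and 20.3% lower. Of 93 Zfp genes with several probes, 10 agreed on the higher side and 2 on the lower, against 4.33% and 7.84% of all such genes. Their median GC content was 38.3%. In females 22 of 278 Zfp genes were higher and 80 lower on MF than on CF. Histone genes, whose clustered copies cross-hybridize, were lower in 14 of 53 (26.4%, against 24.7% of all genes) and higher in 5. At their median level of 1.13, 13.8% of probes were lower and 16.7% higher.

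RNA of neighbouring organs was looked for. Of 119 measured olfactory receptors, which liver is not known to use, 74 were lower and 11 higher on MM, at a median level of -2.87 and a median difference of -0.87, where 40.9% of probes of like brightness were lower. A further 140 receptors were well above background on MM alone and 68 on CM alone, and the summed signal of those measured on both was 62.5 on MM and 55.3 on CM. Heart muscle genes were lower in 9 and higher in 1 of 15, but their median level was -2.83, and their summed signal was 3.63 on MM, 7.41 on CM, 3.14 on MF and 225 on CF. Exocrine pancreas genes, at a median level of -2.35, were lower in 8 of 13, among them Sycn (-1.52 and 0.65, 4.48-fold), and the trypsinogens Try4, Try5 and Prss1 were well above background on CM alone, at least 7.08, 7.15 and 6.74-fold higher there, while Prss2 and Cpb1 were well above background on MM alone. The amylase Amy2a5, whose family liver also expresses, was 1.82-fold higher and set the summed signal of the list, 46.1 on MM and 30.1 on CM. Of the intestine list, 11 of 24 genes were measured, with Fabp2 (4.98 and 2.59, 5.22-fold) and Apoa4 higher and Vil1 and Lgals4 lower, while Cdx2, Alpi, Muc2 and Cdh17 were not well above background on either array. Fetal liver is known to express Apoa4. Of the adrenal and kidney list 4 of 7 were lower. Of the others, Star, Cyp11a1 and Cyp11b1 were well above background on CM alone, and 5 members, among them Umod, Pax2 and Slc22a6, on MM alone. The part of such RNA in the differences above was not tested.

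**Figure D5:**
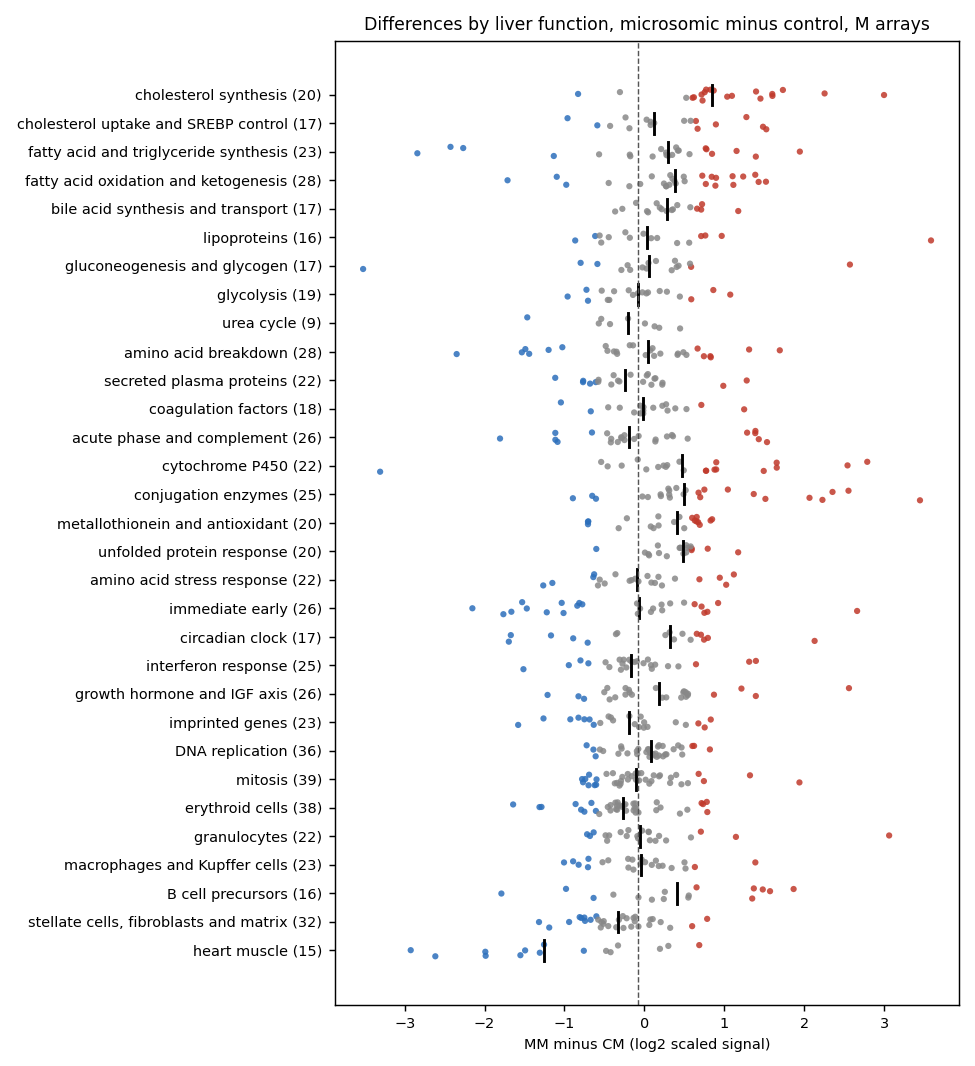
Difference between MM and CM (log2 scaled signal, x axis) of every measured gene in 31 lists of liver functions, cell types and pathways, with the number measured in brackets; red and blue points are more than 1.5-fold higher and lower on MM, black bars are list medians and the dashed line is the median of all genes at -0.08. Cholesterol synthesis lies farthest to the right and heart muscle, whose probes are dim, farthest to the left.

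Beyond the genes measured on both arrays, 4041 genes were well above background on MM alone and 1261 on CM alone. For 1401 of the first and 1258 of the second, the level passed 1.5-fold against the lowest signal well above background on the other array, so the difference is a lower bound. The lowest level well above background was -5.65 on MM and -4.62 on CM.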

How the data were processed

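Liver RNA was labelled with Cy3 and hybridized to 1-colour Agilent mouse 8x60K arrays. The authors deposited the scanner output of Agilent Feature Extraction 10.7.3.1, per the file headers, with processed signal intensity per spot, background-subtracted and divided by a detrending ratio, and no normalization between arrays. The series matrix deposited by the authors holds the same intensity values and was not used further. Of 59305 spots other than controls, spots with an outlier flag on MM or CM (549) were left out, and spots well above background on both arrays were kept (30821 spots, 28384 probes, 21611 genes). The log2 signal minus the 75th percentile of the array was averaged over spots of a probe. Of 36161 gene names 22053 matched RefSeq symbols (GRCm38.p6); coordinates are mm9 as deposited. With 1 array a group there was no test, and the number of arrays, the spread between spots and the disagreement between probes limit the precision.

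Members, gene lists and alternatives were chosen with earlier results of these data known. Named genes were the 15 in each direction with the largest smallest probe difference, up to 3 of each list in each direction, the 6 largest in each direction among genes with a RefSeq symbol whose brightest probe was a 10-spot probe, and all sex check and hepatocyte identity genes; further list members were named to give a pathway in order. A few list members are not reported here by name and count only in their lists. Normexp (offset 50), quantile and cyclic loess normalization used limma 3.58.1 in R 4.3.3, the rest Python 3.11.15. The scripts were tested on simulated data.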

Additional observations from a re-analysis of the deposited data

Results flagged for a closer look

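Of 267 genes named above and measured on all 4 arrays, 130 differed by more than 1.5-fold in males and in females, 71 with the same sign and 59 with opposite signs. The 59 are given here because the pairs went opposite ways; each value is a difference in log2 scaled signal, M minus C, with 1 array on each side, and whether the pairs differ was not tested.

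In lipid and glucose metabolism the values in males and then in females were -2.43 and 0.89 for Scd1, -2.84 and 1.36 for Thrsp, -2.27 and 0.84 for Pnpla3, -0.83 and 1.01 for Tm7sf2, -0.96 and 1.74 for Scarb1, -1.10 and 0.78 for Angptl4, 0.72 and -0.77 for Acot1, 1.11 and -1.39 for Cyp4a14, 0.84 and -1.63 for Cyp4a10, and 0.71 and -0.82 for Baat. They were -3.52 and 1.37 for G6pc, -0.96 and 1.63 for Pfkl, -0.72 and 1.15 for Pklr, and -3.44 and 1.26 for Slc25a25. Most of these genes were lower in the microsomic male and higher in the microsomic female. The male value of Scarb1 is from its brighter probe, and its other probe differed by 0.83.

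Of the genes that clear steroids and foreign compounds, those of opposite sign were at 2.79 and -0.92 for Cyp2b10, 0.90 and -1.59 for Cyp1a2, 1.66 and -0.61 for Cyp39a1, 3.45 and -1.59 for Sult2a1, 2.88 and -2.51 for Sult2a6 and 2.35 and -1.05 for Ugt2b1, with Gstm2 at -0.90 and 0.79. Others had the same sign in both pairs, such as Cyp2c37 (2.54 and 1.53). Amino acid, hormone carrier and iron genes were 1.70 and -1.21 for Hal, 0.83 and -1.03 for Agxt, 1.28 and -1.17 for Serpina7, 0.62 and -2.08 for Hamp and 1.29 and -0.87 for Id1.

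Growth and imprinted genes gave -0.82 and 1.89 for Igf2, -0.69 and 1.95 for Cdkn1c, -0.63 and 3.11 for Phlda2 and -1.58 and 0.87 for Meg3. Early response and stress genes gave -1.22 and 3.50 for Fosb, -1.01 and 0.81 for Jun, -1.67 and 0.95 for Zfp36, -1.47 and 1.80 for Gadd45g, -1.27 and 1.91 for Ddit4, -2.51 and 1.84 for Ndufa4l2, -1.43 and 2.40 for Txnip and 0.79 and -0.60 for Dnajc3. Clock and liver regulators gave 0.80 and -0.74 for Clock, 0.66 and -0.94 for Nr1d2 and 0.93 and -0.83 for Foxa2, and the retinoid genes Rbp2 and Dhrs4 gave -3.60 and 1.40, and 0.97 and -0.77.

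Immune and blood genes gave -1.51 and 1.64 for Isg15, -1.81 and 1.08 for Saa3, -1.80 and 1.31 for Cd4, -1.01 and 0.89 for Cd14, -0.70 and 0.94 for C1qa, -1.64 and 0.84 for Slc4a1, 1.57 and -0.60 for Rag1, 1.37 and -1.27 for Rag2 and -1.79 and 0.93 for Igll1. The others were Hcn2 (-2.0 and 3.43), Adam33 (-1.56 and 0.92), Tmem87a (-1.55 and 1.46), Tagln (-1.32 and 0.63), Amy2a5 (0.87 and -1.24), Vil1 (-1.24 and 4.38) and Lgals4 (-0.83 and 3.53).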

How the results depend on the processing

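No paired analysis was possible because each group of the comparison has 1 array, and for the same reason no replicate could be left out. In all, 97 counts and shares were computed under the 13 alternatives and the 2-fold threshold. Of these, 69 were labelled as stayed and 28 as moved. Counts were held to 1.5 times the value above or to its error. Shares were judged by their change in percentage points, so 46.2% of calls higher against 36.8% was labelled as stayed. Of the 727 list medians 715 stayed, 11 moved and 1 reversed. A median stayed if it changed by less than 0.401, the spot-to-spot SD, which is larger than most list medians. It could reverse only from a value past 0.585 in either direction. A median counted as stayed or moved could still change sign, so these counts do not show stable directions. Relative to all genes, the glycolysis median kept its sign under 7 of the 13 alternatives (-0.097 to 0.151). The granulocyte, iron, macrophage, retinoid and immediate early medians kept theirs under 8, and the cytoplasmic ribosomal median under 9. Cholesterol synthesis, cytochrome P450 and other lists kept theirs under all 13. Of the 3904 values of named genes 3302 stayed, 581 moved and 21 reversed. Genes called higher numbered 5250 after centring each array on its median, 9276 unscaled, 4738 after normexp and quantile normalization, 6080 without the filter on dim probes, 1117 at 2-fold and 1589 among genes with a mean level of at least 0. Genes called lower numbered 2391 unscaled, 13151 without the filter, 2945 at 2-fold and 1322 at a level of at least 0, and calls in all 19231, 4062 and 2911 in the last 3 settings. Genes with agreeing probes on the higher side numbered 476 (median centring), 1205 (unscaled), 339 (no filter), 46 (2-fold) and 140 (level of at least 0), and on the lower side 227, 96, 1375, 140 and 111, with 243 when all 4 arrays had to be well above background. The share of calls that were higher was 57.8%, 79.5% and 54.6% with median centring, unscaled and at a level of at least 0. Relative to all genes, list medians after normexp and quantile normalization were -0.420 for gluconeogenesis, -0.842 for the urea cycle, 0.338 for secreted proteins, -0.069 for intestine, -0.131 for pancreas, -0.299 for heart, 1.129 for the sex check and -0.318 for olfactory receptors. Other moved medians were -0.161 for intestine without the filter, -0.306 for adrenal and kidney on all 4 arrays, and 0.029 for pancreas (reversed) and 0.348 for skin at a level of at least 0. Single genes that reversed after normexp and quantile normalization were Ahsg (0.102), Aldh1a3 (0.058), Cat (-0.234), Fga (0.195), Gpt (-0.095), H3f3a (0.252), Hist1h2ak (0.083), Hrg (-0.096), Mgst1 (0.410), Mki67 (0.028), Mx2 (0.120), Nqo1 (0.390), Rpl13 (0.148), Rpl29 (0.054), S100a9 (0.357), Sel1l (0.175), Serpina1a (0.046), Trf (0.450) and Ttr (0.390). Ermap reversed as the mean over its probes (-0.366) and Sel1l with the position trend removed (0.053). The cause of these changes was not tested. Removal of a GC trend and the limit to genes at a level of at least 0 were chosen after seeing the data. Of the dimmest decile of probes 58.9% were lower on MM, and the part of brightness in these calls was not tested.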
